A study of Mus musculus with 4 samples.

Results

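The genes that differed between wild-type fibroblasts kept with endothelin-1 (ET-1) for 24 h and untreated wild-type fibroblasts are described here. Of 18194 annotated genes, 12290 were bright enough on at least 1 of the 4 arrays to be compared, and every one of them is counted below. The cells are mouse embryonic fibroblasts, connective tissue cells cultured from embryos, with FAK +/+ (wild type) as their genotype. The protein, focal adhesion kinase, signals from the sites where cells grip their matrix. Cells at passage 5 and 50% confluence had been starved of serum for 24 h before the treatment, in the untreated group too. The ET-1 dose and the number of embryos or cultures behind each RNA are not given in the sources used here. FAK -/- (knockout) fibroblasts, untreated and ET-1-treated under the same protocol, complete the 4 samples and serve only for comparison.

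ET-1 is a short peptide best known for constricting blood vessels, and fibroblasts also make and sense it. It binds G protein-coupled receptors that act in large part through Gq, phospholipase C, calcium and protein kinase C, and from there reach MAP kinases and immediate early transcription factors. In fibroblasts it is known for contraction, for the myofibroblast state with its smooth muscle actin, and for matrix production.

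Each group was measured on 1 array, so no difference below has an error estimate, no test was made, and precision is limited by the number of arrays. Levels are log2 values, and differences are ET-1-treated minus untreated on the log2 scale unless a fold is given. In bulk RNA, fewer cells of a type and less RNA per cell cannot be told apart.

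The ET-1-treated wild-type array stood apart at the 5' ends of control transcripts. For Gapdh, a glycolytic enzyme, its 3', middle and 5' probe sets read 14.78, 14.05 and 11.00, whereas the untreated wild-type array read 14.88, 14.54 and 14.01. For 18S ribosomal RNA the 3' and 5' probe sets read 10.99 and 9.29, against 12.49 and 13.14 untreated. The gap between 3' and 5' probe sets was also wider than in untreated wild type for Actb (1.81 against 0.66) and for all 4 spike-in controls: dap 6.23 against 4.66, phe 4.64 against 3.37, lys 4.33 against 3.25 and thr 4.10 against 3.07. It was not wider for the transferrin receptor Tfrc (2.49 against 2.50) or pyruvate carboxylase (0.28 against 0.51). All wild-type readings of Tfrc lay below 8.90, the median of all values, with 5' readings of 6.28 untreated and 6.36 after ET-1. Pyruvate carboxylase read between 9.69 and 10.20 at every position in wild type. Such dim or flat readings cannot show that a transcript was free of the gap. Every difference in this comparison rests on the array of ET-1-treated wild type. The part that the gap has in any single difference was not tested. Genes with several probe sets that gave the same answer are described first; the positions of probe sets in their transcripts were not used here, so this agreement is no check on the gap.

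**Figure D1:**
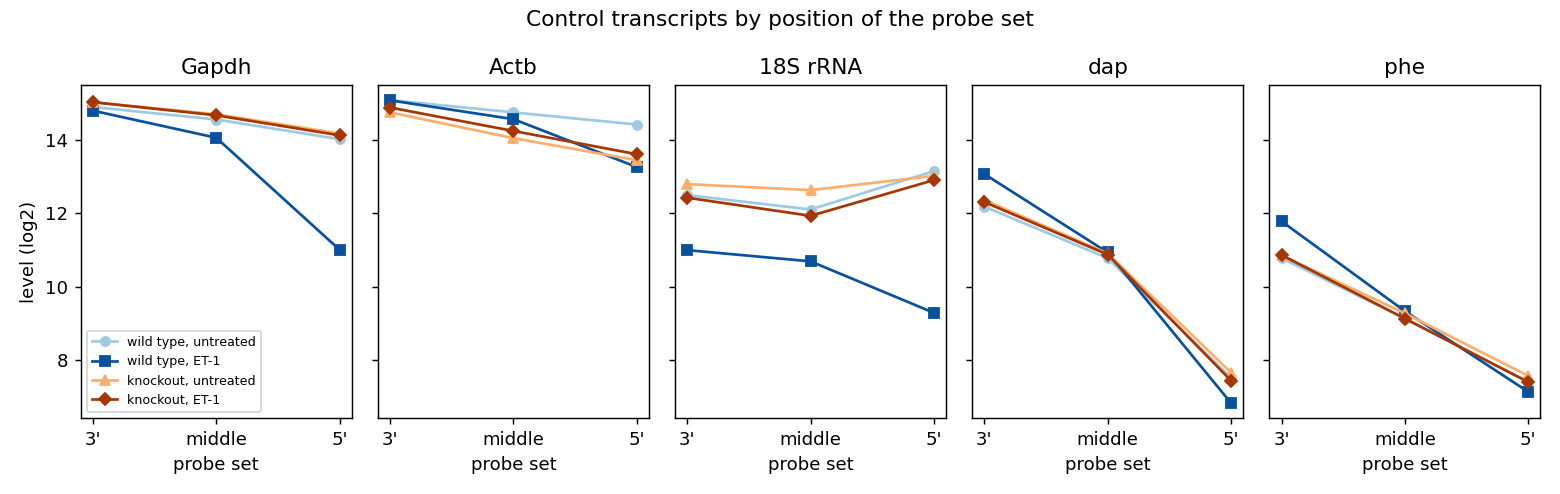
Log2 levels of the 3', middle and 5' probe sets of 5 control transcripts, with 1 line per array. The ET-1-treated wild-type array drops to 11.00 at the 5' end of Gapdh and reads 9.29 at the 5' end of 18S rRNA, while its 3' probe sets of the dap and phe spike-ins read 13.06 and 11.78, above the other arrays.

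After ET-1, 96 genes (0.781%) were at least 2-fold higher and 144 genes (1.17%) at least 2-fold lower. At 1.5-fold the counts were 800 higher (6.51%) and 519 lower (4.22%), and the median over all genes was 0.05. With all probe sets of a gene averaged, 36 genes were 2-fold higher and 109 lower, so that 24.8% of these genes were higher, where the brightest probe sets gave 40.0%. No gene was 4-fold higher, whereas 21 were at least 4-fold lower and 11 at least 8-fold lower. Of the 144 lower genes, 46 did not exceed the level filter (8.90, the median of all values) on both wild-type arrays, and of the 96 higher genes 16 did not, so their folds are uncertain. Each gene is represented by its brightest probe set; the filter kept Itga9 with a highest level of 8.9001 and left out H3c11 with 8.8994, and these genes differed by -0.02 and 0.12.

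**Figure D2:**
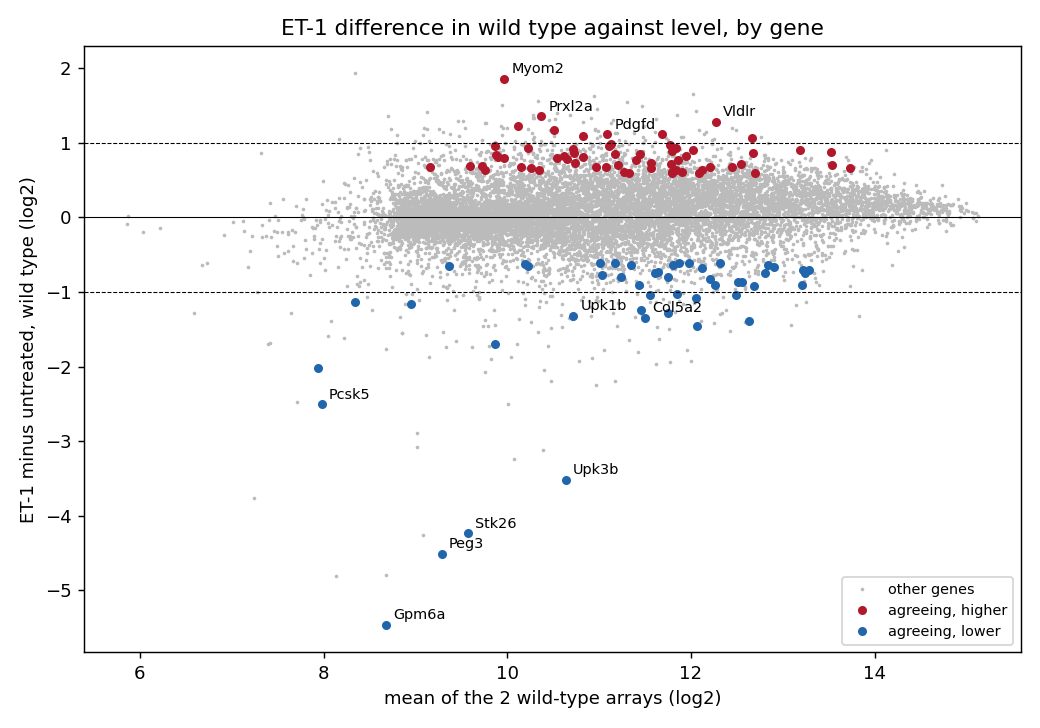
ET-1 minus untreated difference of each gene (log2) against the mean of both wild-type arrays (log2), with dashed lines at 2-fold. Red and blue points are genes whose bright probe sets were all at least 1.5-fold higher or lower; the lower genes reach -5.46 (Gpm6a) and the higher ones 1.86 (Myom2).

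A bright probe set is one that is annotated to a single gene and exceeds the filter on some array, and 5239 genes had at least 2 of them. In 62 of these genes (1.18%) every bright probe set was at least 1.5-fold higher, and in 48 (0.916%) every one was at least 1.5-fold lower. Within the 2-fold counts, 43 higher and 63 lower genes had several bright probe sets, of which 9 and 19 passed this rule, 17 and 28 had 1 sign throughout without passing it, and 17 and 16 had mixed signs. The bright probe sets of a gene spanned a median of 0.43 in wild type and 0.19 in the knockout, and they spanned 2-fold or more in 11.0% and 2.04% of genes.

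Among the genes that were higher on all their bright probe sets, Myom2, which encodes the sarcomere protein myomesin-2, stood at 9.04 untreated and 10.89 after ET-1. Its probe sets gave 1.75 and 1.86, or 3.62-fold by the brighter one. Both are of a kind that may cross-hybridise, and the dimmer one read 8.24 untreated, below the filter. With all probe sets of Myom2 averaged, the difference was 0.999, just under 2-fold. In the knockout Myom2 read 8.92 and 9.07. Prxl2a, a peroxiredoxin-like protein, read 9.69 and 11.04, with probe set differences of 1.35 and 1.95. The sarcomere gene Tnnt2, cardiac troponin T, was 0.83 and 0.84 higher, from 11.02 to 11.86. Acta1, skeletal muscle actin, has a single bright probe set and went from 9.92 to 10.91. Of the 7 muscle markers measured, these 3 were 1.5-fold higher, where 6.51% of all genes were. The summed linear level of the list, of which these 3 are part, was 7137 untreated and 11038 after ET-1. The muscle regulator Myod1 read 9.45 and 9.53, and desmin (Des) 9.38 and 9.23; both were singled out after their values were seen.

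Secreted and matrix genes were the next group with agreeing probe sets. Pdgfd, a ligand of the PDGF receptor, read 10.53 untreated and 11.64 after ET-1, with 0.99 and 1.11 by probe set. Col11a1, a minor fibrillar collagen chain, read 9.76 and 10.69, and its probe sets gave 0.93 and 1.37. Asporin (Aspn), a small leucine-rich matrix protein, read 11.57 and 12.48, with 0.90 and 1.29. Laminin beta-1 (Lamb1), a basement membrane chain, read 13.09 and 13.96, with 0.88 and 0.99. In the knockout, Pdgfd (6.48 untreated), Col11a1 (7.92) and Aspn (7.33) were below the filter, and their levels were lower still after ET-1 (5.85, 7.42 and 6.19).

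Further genes named for agreement were of mixed roles. Rrm2b, the ribonucleotide reductase subunit that p53 induces, was 0.95, 1.25 and 1.45 higher on its 3 probe sets. The stress kinase-like protein Trib3 (0.89 and 0.97) and the stress-induced nuclear protein Nupr1 (0.90 and 0.93) were higher by like amounts on both of their probe sets. Aasdh was 1.03 and 1.12 higher, Mitd1, which acts in abscission at cell division, 0.91 and 0.95, Lgalsl 0.90 and 0.92, the ectoenzyme Enpp4 0.89 and 0.90, and the paraoxonase Pon2 0.83 and 0.88. Of all 62 genes, 42 were also above 0 in the knockout, 2 of them at 1.5-fold. The medians of the 62 were 0.78 in wild type and 0.13 in the knockout. Over all genes, the knockout median was -0.02 and 1.39% were 1.5-fold higher there.

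Differences past 8-fold occurred among the genes that were lower on all their bright probe sets. Gpm6a, a membrane glycoprotein of neurons and mesothelium, read 11.41 untreated and 5.95 after ET-1, near the lowest value of the table (5.00). The probe sets gave -5.46 and -4.49, and no fold is given against so dim a reading. The uroplakin Upk3b read 12.39 and 8.88 (-3.51 and -3.14), and the uroplakin Upk1b was lower on 4 probe sets, by -1.32 to -4.44. The kinase Stk26 (11.69 and 7.46) and the imprinted zinc-finger gene Peg3 (11.54 and 7.03) were also far lower, but their other probe sets gave smaller differences of -1.67 for Stk26 and -1.06 and -1.53 for Peg3. The proprotein convertase Pcsk5 (-2.50 and -1.01) and the glucose transporter Slc2a3 (-1.16 and -1.08) ended below the filter.

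Several bright, widely expressed genes were lower as well. The ribosomal protein gene Rps15 read 13.33 and 11.94 (-1.38 and -1.81), the disulfide isomerase Txndc5 13.01 and 11.97 (-1.04 and -1.91), and the actin crosslinker filamin C (Flnc) 13.15 and 12.23 (-0.91 and -1.69). The transcription factor Tcf3 differed by -1.24 and -1.69. The second-brightest probe sets of Txndc5, Flnc and Aebp1 thus lay further from 0 than the brightest. Extracellular genes in the set were the collagen chain Col5a2 (12.18 and 10.83), thrombospondin-1 (Thbs1, 12.79 and 11.33), the collagen-binding protein Aebp1 (12.60 and 11.51) and Igfbp3, a carrier of insulin-like growth factors (8.91 and 7.77). Aebp1 read 11.99 and 12.70 in the knockout, a difference of 0.71 in the other direction. Igfbp3 was lower there too, at 12.42 and 11.52.

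**Figure D3:**
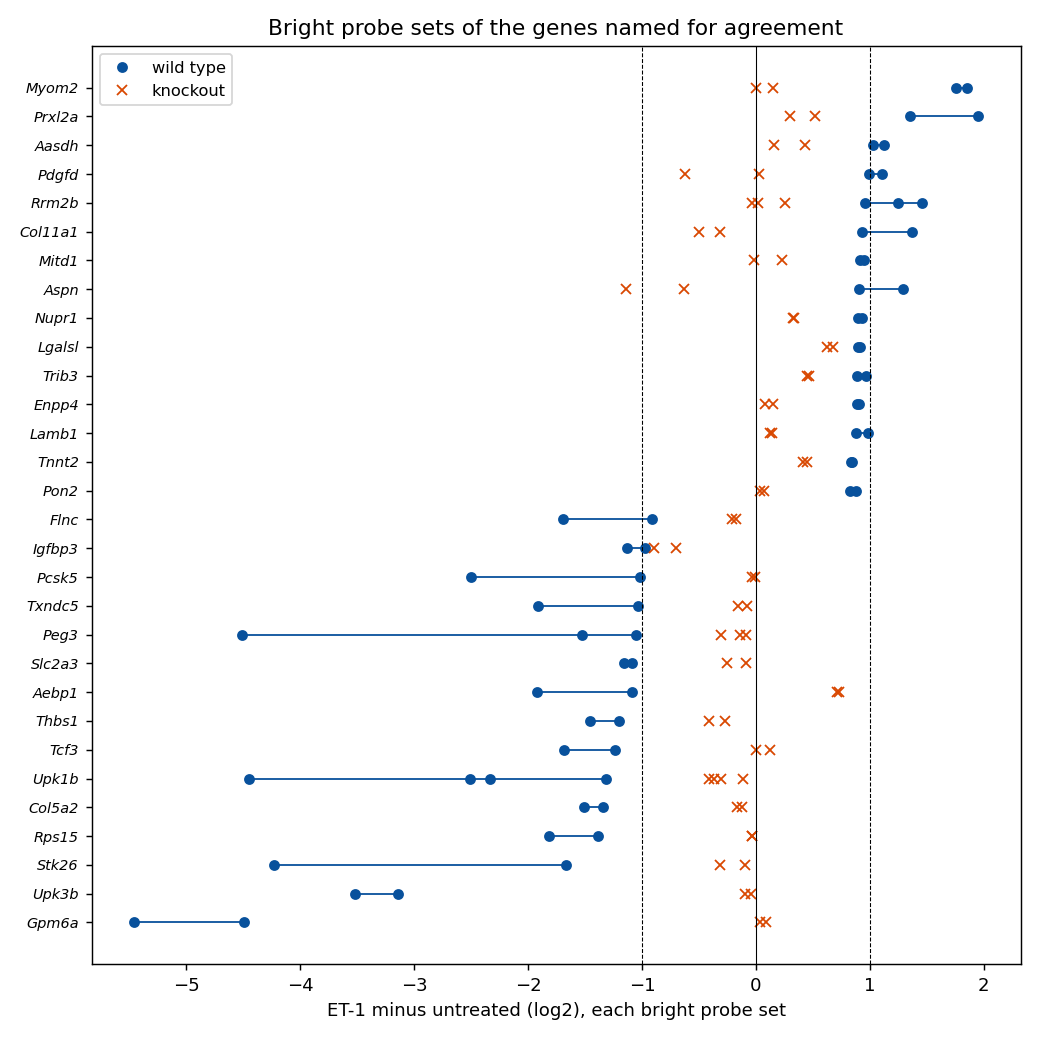
ET-1 minus untreated difference (log2) of each bright probe set of the 15 highest and 15 lowest agreeing genes, with circles for wild type and crosses for the knockout. Wild-type circles lie at 0.83 or above for the higher genes and at -0.91 or below for the lower ones; the knockout crosses lie closer to 0 for most genes, while those of Igfbp3 reach -0.90 and those of Aspn -1.14.

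Genes with a single bright probe set have no such check. The highest were Hectd2, a ubiquitin ligase (7.38 and 9.31), Ms4a4d (9.56 and 11.11), the cell cycle regulator Rgcc (10.53 and 12.08), Ctla2b (10.26 and 11.71), the ubiquitin ligase Trim56 (11.34 and 12.76), the cytokine Tslp (8.42 and 9.83), the G protein regulator Rgs20 (9.60 and 10.97) and Gca (8.02 and 9.37). Their differences ran from 1.35 to 1.93. Trim56 was also higher in the knockout, by 0.59, and the other 7 differed there by -0.52 to 0.36. The lowest were Bex1 (10.54 and 5.74), the fibulin Efemp1 (11.21 and 6.96), the prostacyclin synthase Ptgis (11.95 and 8.82), keratin 18 (Krt18, 10.55 and 7.48) and Cdkn2a, the locus of the tumour suppressors p16 and ARF (11.26 and 8.76). Then came the RNA-binding genes Taf15 (8.94 and 6.47), Snd1 (12.27 and 10.07) and Raly (11.57 and 9.38). Snd1 and Raly each differed by 0.01 in the knockout.

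In 33 genes at 2-fold, either way, another bright probe set had the opposite sign. For Gsdme, a pore-forming gasdermin, one probe set read 11.86 and 9.98 and the other was higher by 0.20. The ubiquitin ligase Birc6 was -1.81 on its brightest probe set and 0.78 on another, and Tmem242, the histone demethylase Kdm6b, Vapb and Golt1b also had both signs. For Ywhaz, a 14-3-3 protein counted as a housekeeping gene, 7 bright probe sets ran from -2.06 to 2.89 although the brightest differed by -0.10.

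Markers of mesothelium, the keratin-bearing lining of body cavities, had 8 members at least 2-fold lower. The lists differ in size and were chosen with earlier results of these data known, so this count is a description and no ranking of lists. Of 18 measured, all 18 were below 0, although Msln by only -0.01. At 1.5-fold 10 were lower, and at 2-fold 8, where 4.22% and 1.17% of all genes were. The list had a median of -0.79, and of -0.11 in the knockout pair. Among the members above the filter on both wild-type arrays the median was -0.28. Besides Gpm6a, Upk3b, Upk1b and Krt18, the 2-fold members named are keratin 14 (Krt14, 11.69 and 8.45), podocalyxin (Podxl, 10.97 and 9.10) and Lrrn4 (9.56 and 7.80). A second bright probe set of Podxl differed by only -0.10, and of the 3 bright probe sets of Krt14 one differed by -0.13. Mesothelin itself (Msln), the marker that names the tissue, read 12.05 on both wild-type arrays, and calretinin (Calb2) 9.56 and 9.43; these were singled out after their values were seen.

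Both knockout arrays read higher than either wild-type array for most of these genes. Gpm6a stood at 14.32 and 14.35 there, Upk3b at 14.75 and 14.66, Krt14 at 13.88 and 13.61, and Podxl at 14.12 and 13.88. In 16 of 18 markers the untreated wild-type level lay between the ET-1-treated wild-type level and the untreated knockout level. For the 8 genes at 2-fold, untreated wild type held 6.63% to 21.9% of the untreated knockout level on the linear scale (median 12.8%). After ET-1, Gpm6a, Upk3b, Krt14, Krt18 and Lrrn4 read below the filter, so no such share is given for them. Summed over the whole marker list on the linear scale, the level was 35939 in untreated wild type, 17358 after ET-1, and 179696 and 160664 in the untreated and ET-1-treated knockout. The part of these markers in the other lower genes was not tested. Some genes outside the list had the same order of levels: Peg3 read 14.40 in the untreated knockout, Stk26 14.40, Efemp1 14.19, Ptgis 14.42, Bex1 13.85 and Pcsk5 13.18. Others did not, as Thbs1 (9.41), Cdkn2a (10.89) and Aebp1 (11.99) read lower there than in untreated wild type. Over the 15 lowest agreeing genes, untreated wild type held 6.45% to 1046% of the untreated knockout level (median 19.46%). For the 8 lowest with 1 bright probe set it held 10.06% to 224% (median 53.55%). Both sets include some of the markers.

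**Figure D4:**
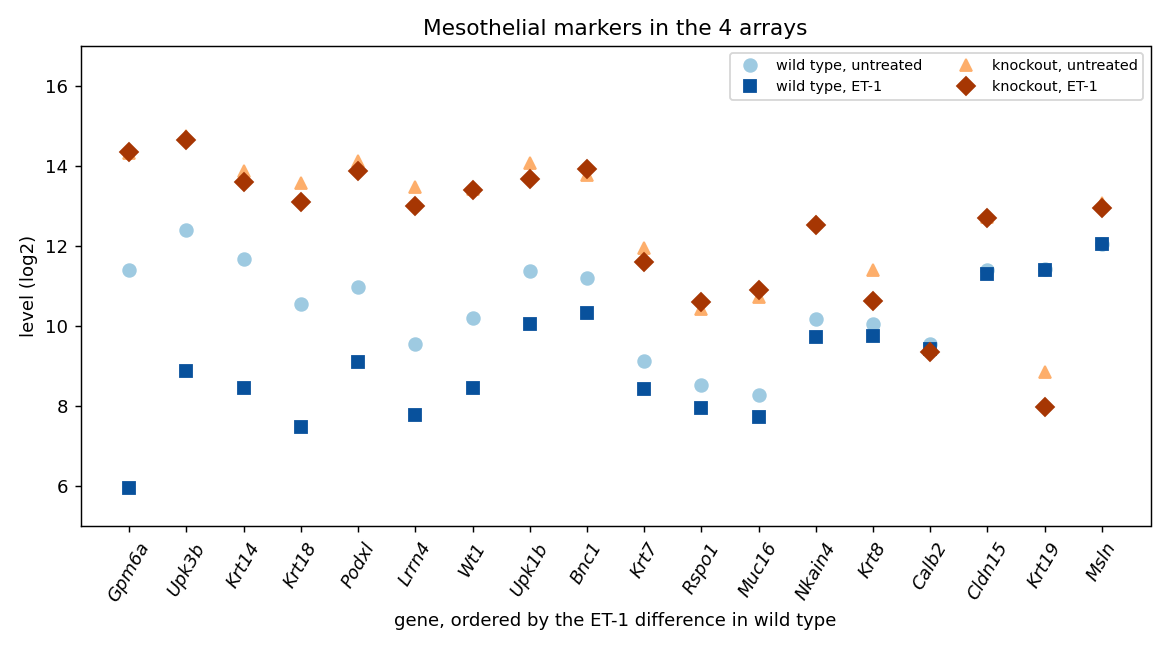
Log2 levels of the 18 measured mesothelial markers in the 4 arrays, ordered by the wild-type ET-1 difference. From Gpm6a to Upk1b, the 8 leftmost genes, ET-1-treated wild type is lowest, untreated wild type lies between, and both knockout arrays are highest.

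Markers of other cells differed less. None of the 7 epithelial, 5 endothelial, 5 macrophage and blood, 3 neural and glial or 4 cartilage and bone markers measured was 1.5-fold higher or lower. Of all genes, 6.51% were higher and 4.22% lower. A further 6, 7, 5, 6 and 2 markers of these lists, in that order, were left out by the filter. Several of those measured read little above it, such as Lyz2 (9.17 and 9.31) and Sp7 (9.39 and 9.36). These lists therefore say little about such cells. Of the 4 adipocyte markers, the fatty acid carrier Fabp4 (9.35 and 10.55) and lipoprotein lipase (Lpl, 13.40 and 14.07) were higher, while the adipocyte regulator Pparg read 9.33 and 9.64, and the summed linear level was 12900 and 20278. Of the fibroblast markers, which bear on the label of the cells, several were high on both arrays: Thy1 read 13.01 and 13.46, Pdgfrb 13.34 and 13.80, Col1a1 13.84 and 14.26, and Cdh11 13.01 and 13.34. Another bright probe set differed by -0.31 for Pdgfrb, 0.095 for Col1a1 and -0.09 for Cdh11. The list's summed linear level was 145423 untreated and 151580 after ET-1, with a median difference of 0.04. Of 14 measured, 7 were above 0 and 7 below 0, with Cd34 among the latter (13.77 and 13.23). Only Tcf21, a transcription factor of organ mesenchyme, was 1.5-fold lower (4.22% of all genes), and none was 1.5-fold higher (6.51%). Tcf21 read 8.77 and 7.38, below the filter on both arrays, and 11.99 and 12.72 in the knockout.

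Genes of amino acid supply and the ATF4 stress response had a median above that of all genes. ATF4 is a transcription factor made when translation is slowed by amino acid shortage or endoplasmic reticulum stress, and it turns on genes for amino acid synthesis and import. Of 20 measured, 16 were above 0, 6 at 1.5-fold (6.51% of all genes) and 3 at 2-fold (0.781% of all genes), and 1 was 1.5-fold lower (4.22% of all genes). The median was 0.32 against 0.05 for all genes. The median in the knockout was 0.07. The alanine transaminase Gpt2 read 11.20 and 12.85 by its brightest probe set, while its other 3 bright probe sets gave 0.18 to 0.68. The lipoprotein receptor Vldlr read 11.63 and 12.91, and all 5 of its bright probe sets were higher, by 0.68 to 1.79. Cth, which makes cysteine from cystathionine, read 11.84 and 13.04. Slc1a4, a transporter of neutral amino acids, was 0.75 higher by its brightest probe set and had another at -0.27. In the knockout, Gpt2 (12.95 and 13.18) and Vldlr (12.65 and 12.98) stood in both arrays near the level that wild type had after ET-1. The wild-type median was 0.07 with the second-brightest probe sets and 0.08 without probe sets that may cross-hybridise, so its size depends on which probe set is read.

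The promoters of Trib3, Nupr1 and Vldlr, the 3 members whose bright probe sets all agreed, are shown because each holds the core of the composite element that ATF4 binds with C/EBP proteins (TGATGNAA, searched on both strands in a window from 250 bases before to 50 after the RefSeq start; GRCm38.p6). That core occurs in 3.97% of all 32851 windows. Trib3 lies on the minus strand of chr2:152344011-152344310, Nupr1 on the minus strand of chr7:126625421-126625720, and the matching one of 2 Vldlr windows on the plus strand of chr19:27216770-27217069. Capitals mark the match, which begins 15 bases into the transcript for Trib3 and at -110 and -200 for Nupr1 and Vldlr.
Trib3: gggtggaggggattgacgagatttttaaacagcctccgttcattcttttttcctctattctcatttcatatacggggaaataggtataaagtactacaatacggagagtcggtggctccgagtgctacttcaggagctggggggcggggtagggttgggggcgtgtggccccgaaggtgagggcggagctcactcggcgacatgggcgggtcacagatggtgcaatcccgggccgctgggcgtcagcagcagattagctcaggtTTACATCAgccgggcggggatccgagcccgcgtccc
Nupr1: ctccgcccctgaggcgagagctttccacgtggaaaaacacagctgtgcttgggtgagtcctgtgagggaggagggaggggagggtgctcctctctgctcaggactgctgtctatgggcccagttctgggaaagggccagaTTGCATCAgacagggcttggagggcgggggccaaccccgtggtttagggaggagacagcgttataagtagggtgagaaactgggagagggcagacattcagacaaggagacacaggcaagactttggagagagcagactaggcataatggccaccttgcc
Vldlr: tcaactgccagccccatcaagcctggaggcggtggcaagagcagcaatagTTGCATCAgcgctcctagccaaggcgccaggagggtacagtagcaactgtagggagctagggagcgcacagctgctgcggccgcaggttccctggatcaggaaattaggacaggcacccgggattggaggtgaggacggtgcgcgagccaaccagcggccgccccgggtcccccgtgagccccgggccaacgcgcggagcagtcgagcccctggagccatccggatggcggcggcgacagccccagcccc

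Of the 19 genes of the list with a promoter window, 7 held the core. By their brightest probe sets, the 6 of them that were measured (Asns, Chac1, Nupr1, Slc1a4, Trib3 and Vldlr) were all above 0. They ranged from 0.47 to 1.28 with a median of 0.84, but other bright probe sets of Slc1a4 gave -0.02 and -0.27. Among the 12 measured genes without the core, 9 were above 0 and the median was 0.08. The 3.97% above counts windows and not genes. The motif was chosen after the differences were seen, so this split is no test of it. A match in these letters is a description and not a binding site.

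p53 targets leaned the same way. The p53 protein is a transcription factor that responds to DNA damage and other stress by slowing the cell cycle and promoting repair or death. Of 18 measured, 7 were 1.5-fold higher, where 6.51% of all genes were, 1 of them at 2-fold (0.781% of all genes). Another was 1.5-fold lower (4.22% of all genes). The median was 0.33, or 0.17 with the second-brightest probe sets, and 0.05 in the knockout. Trp53inp1, which promotes autophagy and cell death, read 9.62 and 10.95, and it was higher in the knockout too (11.50 and 12.35). The growth arrest gene Gadd45a read 10.03 and 11.00, the RNA-binding protein Zmat3 11.05 and 11.86, and Rrm2b 10.63 and 11.58. The stress sensor sestrin-2 (Sesn2) was 0.81 higher by one probe set and -0.06 by the other, and the Akt inhibitor Phlda3 read 11.34 and 10.60. Cdkn1a, the cell cycle inhibitor p21 and best known target, read 11.20 and 11.10, with its other bright probe set 0.35 higher.

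Metallothioneins and oxidant defence genes had medians below 0 in both genotypes. Metallothioneins are small cysteine-rich proteins that hold zinc and copper. Of 13 measured, 10 were below 0 in wild type, 3 at 1.5-fold (4.22% of all genes) and 1 at 2-fold (1.17% of all genes), and 1 was 1.5-fold higher (6.51% of all genes). The medians were -0.37 (wild type) and -0.36 (knockout), and the first was -0.17 with the second-brightest probe sets. Mt2 read 12.49 and 11.33 in wild type and 12.97 and 10.89 in the knockout. Mt1, its neighbour, read 12.22 and 11.85, then 12.47 and 11.72. The heme-degrading enzyme Hmox1 read 10.86 and 9.95, then 11.83 and 11.07. Sulfiredoxin (Srxn1) was lower by 0.84 on its brightest probe set, and another of its 4 bright probe sets gave 0.03. Catalase (Cat) went the other way in wild type, from 12.20 to 12.81, with its other bright probe set at 0.11. These wild-type and knockout differences share no array.

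The promoters of Mt1 and Mt2 are shown because metal response elements, the sites through which zinc is known to act on these genes, recur in them. The element's core was searched as TGCACNC or TGCGCNC on both strands, and 25.7% of all windows hold at least 1. Mt1 lies on the plus strand of chr8:94178839-94179138 with 3 matches, and Mt2 on the plus strand of chr8:94172368-94172667 with 4. Capitals mark the matches.
Mt1: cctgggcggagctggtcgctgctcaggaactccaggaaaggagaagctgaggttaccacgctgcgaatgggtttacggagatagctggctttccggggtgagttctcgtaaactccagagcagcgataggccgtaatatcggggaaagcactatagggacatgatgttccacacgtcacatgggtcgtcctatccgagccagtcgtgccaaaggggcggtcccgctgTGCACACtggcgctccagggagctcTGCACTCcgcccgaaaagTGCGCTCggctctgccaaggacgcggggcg
Mt2: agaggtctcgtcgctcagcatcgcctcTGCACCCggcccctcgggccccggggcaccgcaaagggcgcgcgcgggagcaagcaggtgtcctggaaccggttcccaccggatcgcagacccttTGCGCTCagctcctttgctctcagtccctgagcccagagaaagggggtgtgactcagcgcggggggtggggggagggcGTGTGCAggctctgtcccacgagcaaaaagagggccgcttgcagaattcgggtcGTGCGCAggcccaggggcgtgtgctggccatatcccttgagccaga
Of the 13 genes of this list with a window, 5 held a core (Gclm, Gstm1, Mt1, Mt2 and Srxn1). By their brightest probe sets these 5 were all below 0, with a median of -0.51, but Gstm1 and Srxn1 each had another bright probe set at 0.03. The 5 measured genes without a core had a median of 0.26. The 25.7% above counts windows and not genes. This motif too was chosen after the values were seen, so the split is no test of it and its matches are a description.

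None of the 6 endothelin system genes measured was 1.5-fold higher or lower: Edn1, the ET-1 precursor, read 10.75 and 10.95, the receptor gene Ednrb 9.33 and 9.32, and the converting enzyme Ece1 11.39 and 11.68. In the Gq, calcium and RGS list, 3 of 25 were 1.5-fold higher and 3 lower, where 6.51% and 4.22% of all genes were, and the median was 0.01. The protein kinase D gene Prkd1, a target of protein kinase C, was higher on both bright probe sets (0.80 and 1.06; 12.14 and 13.19), the calcium channel Trpc1 read 9.44 and 10.37, and the phospholipase Plcb4 11.51 and 12.21, with another bright probe set at -0.18. Lower were the kinase Prkcd (11.10 and 10.33, with another probe set at 0.22), the G protein subunit Gna12 (11.29 and 10.60) and the regulator Rgs4 (9.69 and 9.04).

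Immediate early genes did not move as 1 group. Of 23 measured, 5 were 1.5-fold higher and 2 lower (6.51% and 4.22% of all genes), with a median of -0.09. Egr1, a zinc-finger factor that growth signals induce within minutes, read 11.72 and 12.77 in wild type and 11.28 and 12.89 in the knockout. Fos read 10.42 and 11.05, then 11.08 and 12.21. The orphan receptor Nr4a2 (9.25 and 9.94, with others at 0.18 and 0.30) and the AP-1 gene Fosl2 (13.01 and 13.67, with another probe set at -0.15) were higher in wild type, whereas Junb (9.21 and 8.27) and Ier2 (11.60 and 10.79) were lower. The MAP kinase feedback inhibitors had 0 of 17 members at 1.5-fold in wild type, and 3 higher in the knockout, where 1.39% of all genes were.

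Inhibitors of differentiation had opposite signs in the wild-type and knockout pairs. The Id proteins block basic helix-loop-helix factors and are induced by BMP signals through Smad proteins. Id1 read 10.07 and 8.54 in wild type, the latter below the filter, and 10.99 and 12.34 in the knockout. Id3 read 11.35 and 9.99, then 11.65 and 13.04. Id2 read 11.38 and 10.03, then 12.22 and 12.82, and its other bright probe set differed by -0.36 in wild type. The inhibitory Smad6 read 11.01 and 10.30, then 11.94 and 12.70. Over the whole TGF-beta, activin and BMP list, 4 of 24 were 1.5-fold lower (4.22% of all genes), 3 of them 2-fold (1.17% of all genes), and none was 1.5-fold higher. In the knockout 6 were 1.5-fold higher (1.39% of all genes) and 3 lower (0.936% of all genes). The difference between genotypes was not tested.

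Contractile and matrix genes, for which ET-1 is known, are read against the same shares, 6.51% higher and 4.22% lower. Of 24 contractile genes 2 were 1.5-fold higher and 1 lower (median 0.17, or 0.0243 with the second-brightest probe sets). Smooth muscle actin (Acta2) read 14.98 and 15.06, close to the highest value of the table (15.24), and transgelin (Tagln) 14.15 and 14.45. Myosin light chain kinase (Mylk) was 0.77 higher by its brightest probe set and 0.03 by the other, and nonmuscle myosin Myh9 was 0.91 higher there with another probe set at -2.31. Of 21 collagens 3 were 1.5-fold higher and 2 lower (median 0.15). Col8a1 (13.32 and 14.10) and the basement membrane chain Col4a1 (12.85 and 13.53) were higher beside Col11a1, while Col4a6 (9.67 and 9.06) was lower beside Col5a2. For Col8a1 the other bright probe set differed by -1.03, for Col4a1 by 0.30 and for Col4a6 by 0.03. The collagen median had the opposite sign, -0.06, with the second-brightest probe sets.

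Matrix glycoproteins held larger single differences. Of 25, 3 were 1.5-fold higher and 4 lower, with a median of 0.09. Fibulin-5 (Fbln5), which helps assemble elastic fibres, read 12.23 and 13.30, while elastin itself (Eln, 10.08 and 9.34, with another bright probe set at 0.01) and fibulin-2 (Fbln2, 12.78 and 12.02) were lower beside Efemp1 and Thbs1. Fibronectin (Fn1) read 14.42 and 14.62, with another, dimmer probe set at -0.65. The 15 collagen processing genes had a median of -0.29, which was -0.0141 with averaged and -0.0466 with second-brightest probe sets, and 2 members 1.5-fold lower, the prolyl hydroxylase P4ha1 (12.47 and 11.78, with its probe sets at -0.68 and -0.92) and the lysyl oxidase Loxl4 (10.67 and 10.05). Among 15 CCN and YAP-responsive genes the median was 0.28, but 0.0462 with averaged and 0.0169 with second-brightest probe sets. The clotting initiator F3 (12.67 and 13.34) and the kinase Lats2 (12.48 and 13.16, with another probe set at -0.39) were higher and the receptor Axl (12.66 and 11.90) was lower. Ccn2 read 14.36 and 14.71. Integrin alpha-1 (Itga1), a collagen receptor, read 8.73 and 9.87, and alpha-5 (Itga5), the fibronectin receptor chain, 9.47 and 8.80.

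Secreted growth regulators differed one by one. Neuregulin-1 (Nrg1) read 9.62 and 10.95. Igfbp6, a binding protein for IGF2, read 11.21 and 9.73, and it was lower in the knockout as well by -0.87 from 12.87. Igfbp4 read 13.07 and 12.33, with all 6 of its bright probe sets below 0 (-0.20 to -1.42). The chemokine Cxcl5 read 12.52 and 13.19, and the chemokine Ccl7 10.24 and 9.63. Pla2g4a, which frees arachidonic acid for prostanoids, read 12.16 and 12.82, next to the far lower Ptgis.

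Endoplasmic reticulum and sterol genes had medians above that of all genes by the brightest probe sets. Of 15 chaperone and stress genes of the endoplasmic reticulum, 4 were 1.5-fold higher and 3 lower, where 6.51% and 4.22% of all genes were. Their median was 0.22, or 0.0626 with the second-brightest probe sets. Edem1 (11.49 and 12.31, with another probe set at 0.20), Dnajc3 (10.93 and 11.66, with others from 0.19 to 0.59), Creld2 (12.56 and 13.27) and Dnajb9 (11.75 and 12.42) were higher, and the isomerase Pdia4 (10.51 and 9.50) and Sdf2l1 (9.82 and 8.91) lower. The master chaperone Hspa5 read 14.63 and 14.91; it was singled out after its value was seen. Of 14 cholesterol synthesis genes, 2 were 1.5-fold higher and 0 lower (median 0.30 in wild type, -0.06 in the knockout). Dhcr7, the last enzyme of the pathway, read 10.85 and 11.75. Squalene synthase (Fdft1) read 12.97 and 13.64, and its other bright probe set gave -0.16.

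Cell cycle genes had a median of -0.02, which was -0.27 with the second-brightest probe sets and -0.26 without those that may cross-hybridise. Of 27, 2 were 1.5-fold lower, where 4.22% of all genes were: the mitotic kinase Plk1 (12.43 and 11.56) and survivin (Birc5, 12.78 and 12.11). The proliferation marker Mki67 read 13.61 and 13.71. Housekeeping genes had a median of 0.04 by the brightest probe sets and -0.18 by the second-brightest, and Actb, beta-actin, read 15.07 and 15.06 with its bright probe sets running from -1.16 to 1.09.

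**Figure D5:**
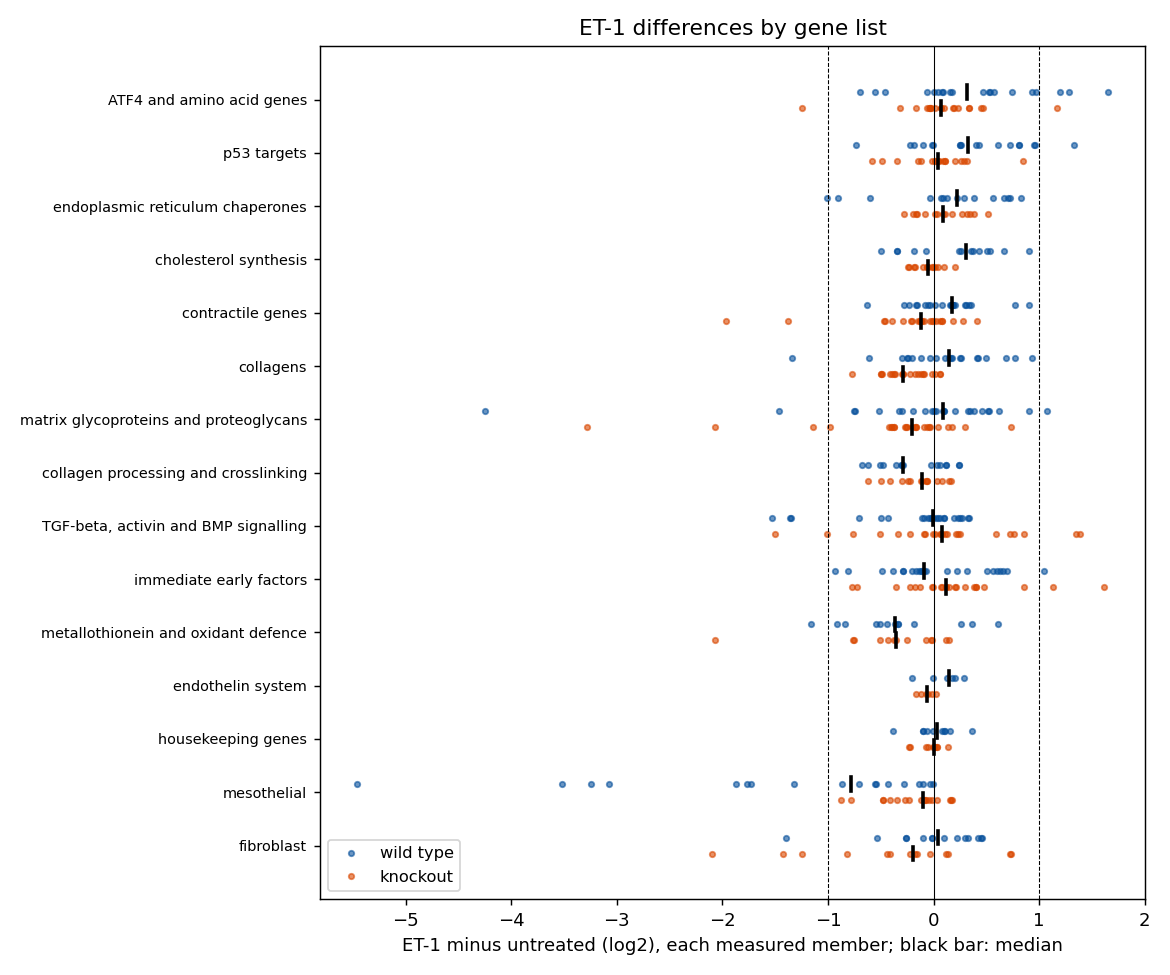
ET-1 minus untreated difference (log2) of each measured member of 15 gene lists, blue for wild type and orange for the knockout, with black bars at the medians. The mesothelial list reaches furthest below 0 in wild type (median -0.79), ATF4 and p53 genes have medians of 0.32 and 0.33, and the oxidant defence medians are -0.37 and -0.36.

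The knockout pair gives the only measure of the same treatment on other arrays. There, 171 genes (1.39%) were 1.5-fold higher after ET-1 and 115 (0.936%) 1.5-fold lower. In both genotypes 31 genes were 1.5-fold higher. They are 3.88% of the genes higher in wild type, beside 1.39% of all genes higher in the knockout. They are 18.1% of the genes higher in the knockout, beside 6.51% of all genes higher in wild type. In both, 14 genes were 1.5-fold lower. These are 2.7% of the genes lower in wild type, beside 0.936% of all genes lower in the knockout. Of the genes lower in the knockout they are 12.2%, beside 4.22% of all genes lower in wild type. Among the shared genes were Egr1, Fos, Trp53inp1, Trim56, Lgalsl and Plcb4 on the higher side. Mt2, Hmox1, Igfbp3, Igfbp6, Fgf5 and Ccl7 were among those on the lower side. Fgf5 (8.71 and 7.79) was below the level filter on both wild-type arrays, and Igfbp3 ended below it there at 7.77. Ccl7 (8.41 and 7.82) was below it on both knockout arrays, so these folds are uncertain. Of the 96 genes at 2-fold higher in wild type, 84 were within 1.5-fold of untreated in the knockout, 7 were 1.5-fold higher and 5 were 1.5-fold lower. Of the 144 lower, 131 were within 1.5-fold there, 3 were 1.5-fold lower and 10 were 1.5-fold higher. Over all genes, only 1.39% were 1.5-fold higher and 0.936% 1.5-fold lower in the knockout. Most genes at large were thus within 1.5-fold there too, so these counts do not mark the differences as particular to wild type.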

How the data were processed

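Total RNA (Trizol, per the labels' protocols) from 4 samples was labelled in 2 cycles from 100 ng and hybridised to Affymetrix mouse arrays, 1 per group. This labelling starts at the 3' end. Cells were grown in 10% serum, per the labels' protocols. The authors deposited a log2 value for each probe set. RMA, a background correction, quantile normalisation and summary in one, is named in the submitters' processing notes with no version. The values run from 5.00 to 15.24, and dim differences may be understated.

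The platform annotation listed 1 gene for 34958 of 45101 probe sets, several for 932, and left 9211 unlisted; 34754 matched RefSeq by Entrez identifier. The table had 0 columns of other samples. A gene took its brightest probe set (highest mean over 4 arrays), and was kept if its highest value exceeded the median of all values (8.90). Differences were taken without a test in Python 3.11.15 (numpy 2.4.6, pandas 2.3.3, matplotlib 3.10.9), with code tested on simulated data.

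The gene lists and members were chosen with earlier results of these data known. Named genes are the 15 highest and 15 lowest with agreeing bright probe sets (at least 2, each 1.5-fold), the 8 highest and 8 lowest with 1, up to 6 per list described, a short set fixed by name, and 6 with mixed signs; clone names were passed over, and some are left out of the text. Others in the text were chosen after their values were seen. In the set fixed by name, 2 genes are not analysed here, nor is the gene for FAK, so the genotype labels were not checked. Promoters are from RefSeq (GRCm38.p6); the probe sets carry no coordinates.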

Additional observations from a re-analysis of the deposited data

Results flagged for a closer look

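Of the genes named, 5 were at least 2-fold higher in one genotype and at least 2-fold lower in the other, each on 1 array a side, and the difference was not tested. The wild-type difference minus the knockout difference was -2.88 for Id1, -2.74 for Id3, -4.05 for Taf15, 2.45 for Cth and 3.20 for Ifngr2. Cth (7.82 and 6.58) read below the level filter in both knockout arrays and Taf15 read 6.47 after ET-1 in wild type, so their folds are uncertain. The second bright probe set of Ifngr2, a chain of the interferon-gamma receptor, differed by 0.08 in wild type against 1.51 for the brightest.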

How the results depend on the processing

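The counts depended most on the fold and on the probe set read. At 1.5-fold they were 800 higher and 519 lower, in place of 96 and 144. With all probe sets averaged, 36 genes were higher and 109 lower, so the share of higher genes was 24.8% in place of 40.0%, and at 1.5-fold it was 60.7%. The other settings gave 80 to 122 higher and 98 to 205 lower, with 33.1% to 48.0% higher. Counts with agreeing probe sets were 9 and 19. They became 3 when every bright probe set of a higher gene had to reach 2-fold, 26 and 47 when only the sign had to be shared, and 11 lower with both wild-type arrays above the filter. The median of the ATF4 list (0.32) was 0.11 with averaged probe sets, 0.0674 with the second brightest and 0.0814 without probe sets that may cross-hybridise. The mesothelial median (-0.79) was -0.28 with both wild-type arrays above the filter, which leaves out the genes that ended below it; the p53 and oxidant defence medians kept their signs, at 0.17 to 0.37 and -0.37 to -0.17.

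Opposite signs appeared with the second-brightest probe set in the medians of collagens (-0.0627), matrix proteases (-0.0115) and prostanoid genes (-0.0175), and in Birc6 (0.78), Golt1b (0.47), Tmem242 (0.23), Gsdme (0.20), Vapb (0.19) and Kdm6b (0.15). The epithelial median became 0.037 with averaged probe sets, and the prostanoid median -0.0133 with no filter. The cause was not tested. Of 62 named genes at 2-fold, 50 kept 2-fold with the second-brightest probe set and 61 with centred arrays. With averaged probe sets 36 of 57 did, and without probe sets that may cross-hybridise 57 of 59. No replicate could be left out with 1 array a group. No paired analysis was possible because each group has 1 array.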
